A study of Homo sapiens with 12 samples.

Results

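The 41 genes described here encode chromatin repressors and remodellers. They were taken by symbol from both expression tables, where all 41 were found among the 25540 genes that the tables share. They are 5 genes of the PRC2 core, 8 of PRC1, 3 DNA methyltransferases, 3 TET dioxygenases, 11 of NuRD, 10 of BAF and PBAF, and the histone demethylase KDM1A. RBBP4 and RBBP7 are counted under NuRD and are also histone-binding partners of PRC2, and HDAC1 and HDAC2 serve further corepressors.

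PRC2 places a repressive methyl mark on histone H3, and PRC1 reads that mark and ubiquitinates histone H2A, so that together they hold developmental genes silent. DNA methyltransferases write cytosine methylation, TET enzymes oxidise it, and NuRD joins a nucleosome remodeller to histone deacetylases at repressed or methylated sites. BAF and PBAF use ATP to move or evict nucleosomes, often against Polycomb, and their subunits are frequently mutated in cancers, those of the colon included.

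RNA-seq was made of LS411N-BR and its counterpart LS411N, a human colon cancer line, both puromycin resistant and carrying a tet-inducible short hairpin RNA against MUC1, a transmembrane mucin. LS411N-BR is labelled as resistant to BRAF inhibitors, and its medium held 4 µM BRAF inhibitor, while LS411N is labelled as not resistant and was grown without it. The 4 groups were LS411N-BR with doxycycline (500 ng/ml), LS411N-BR without it, LS411N with doxycycline (500 ng/ml) and LS411N without it, the protocol giving 0.1% DMSO as vehicle control. Each group has 3 libraries, from cells described as grown in triplicate; nothing further says that these were separate cultures, so p-values measure the spread between these libraries. No line with a non-targeting hairpin and no hairpin-free line given doxycycline was analysed here, so effects of losing MUC1, of the hairpin on other mRNAs and of doxycycline cannot be told apart.

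MUC1 was checked first. It had 0.593, 0.357 and 0.393 TPM in the LS411N-BR libraries with doxycycline, against 3.88, 3.84 and 4.44 TPM without it. In LS411N it had 0.974, 0.817 and 1.03 TPM with doxycycline, against 5.44, 7.05 and 4.12 TPM without it. MUC1 was thus lower in every library with doxycycline, by 88.9% of the mean in LS411N-BR and by 83% in LS411N. These and all TPM (transcript abundance per gene length, scaled to a fixed library total) below were rescaled by median-of-ratios factors over the 12 libraries and the shared genes, which differed between 0.853 and 1.18. Between 15116 and 17999 genes were above 0 in a library, and the depth in reads is unknown. Of 10 colon epithelium markers, 9 averaged at least 1 TPM in each group, as did none of 5 fibroblast and 4 endothelial markers and 1 of 5 immune markers. That marker, CD68, also rose with doxycycline, by 0.8 in LS411N-BR and 1.13 in LS411N on the log2 scale. Replicate 3 of LS411N without doxycycline stood apart: the SD of its log2 differences to the other libraries of its group was 0.232 and 0.233, against 0.0916 to 0.124 for every other pair of replicates.

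The first question was which of these mRNAs changed when the hairpin was induced. Of the 10 BAF and PBAF members, 5 were called lower in both lines (ARID1A, ARID1B, ARID2, PBRM1 and SMARCA2), as were DNMT1 and DNMT3A and, of NuRD, MBD3, MTA2 and RBBP4. MBD2, GATAD2A and the PRC1 ligase RNF2 were called higher in both. None of the genes counted here as PRC2 core was called lower in either, but RBBP4, counted under NuRD, also partners PRC2. Log2 fold changes, with over without doxycycline, are of log2(TPM + 1) within a line, and a call means a limma p under 0.05 after Benjamini-Hochberg adjustment over all genes tested. In LS411N-BR, 40 members were tested, of which 6 were called higher and 19 lower, beside 32.3% and 32.2% of all 11307 genes tested. In LS411N, 39 members were tested, of which 3 were called higher and 12 lower, beside 18.8% and 16% of all 11284 genes tested. The members' median log2 fold change was -0.09 in each line, beside -0.002 in LS411N-BR and 0.01 in LS411N over all genes tested.

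Most changes were small on the log2(TPM + 1) scale, which understates those of low genes. On it, the lowest member log2 fold changes were -0.53 for ARID2 in LS411N-BR and -0.54 for DNMT3A in LS411N. The highest was 0.35, for MBD2 in LS411N. By percent change of the mean, DNMT3A fell further than ARID2 in LS411N-BR too, at -38.7% against -31.9%. Of the 39 members tested in both lines, 3 were called higher in both and 10 lower in both, beside 16% and 13.7% of the 10932 genes tested in both. No member was called in opposite directions. A further 12 were called in LS411N-BR alone, 2 in LS411N alone, and 12 in neither.

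The difference between the lines was tested as an interaction in limma over 12 libraries. Only LS411N-BR was grown with BRAF inhibitor, so line and inhibitor cannot be told apart in this difference. No member was called among the 40 tested, while 8 had an unadjusted p under 0.05. Of all 11674 genes, 4.37% were called higher in LS411N-BR than in LS411N and 5.81% lower. The smallest adjusted p among members was 0.063, for HDAC1 (difference -0.18 ± 0.06 SE). Leaving out replicate 3 of LS411N without doxycycline gave 1 higher and 3 lower calls for this difference, and SMARCA4 (0.19) was the higher one. SMARCA4 was also called without replicate 1 of LS411N with doxycycline (0.23), HDAC1 without replicate 2 of LS411N without it (-0.21), and PCGF1 without replicate 2 of LS411N-BR with it (-0.36).

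These counts depend on the scaling. In TPM as deposited, the median log2 fold change of all genes was 0.18 in LS411N-BR and 0.08 in LS411N, and changes here are relative to a median near 0. As deposited, 17 members were called higher and 7 lower in LS411N-BR, beside 56.1% and 11.1% of all genes. In LS411N 1 was called higher and 3 lower, beside 9.75% and 3.43% of all genes. All 7 and all 3 of the lower calls were also lower here, and 16 members in LS411N-BR and 3 in LS411N changed sign between the scalings. DNMT3A, MBD3 and ARID2 were called lower, and MBD2 higher, in both lines under either scaling and with any library left out, and these 4 are all the members called in LS411N as deposited.

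**Figure D1:**
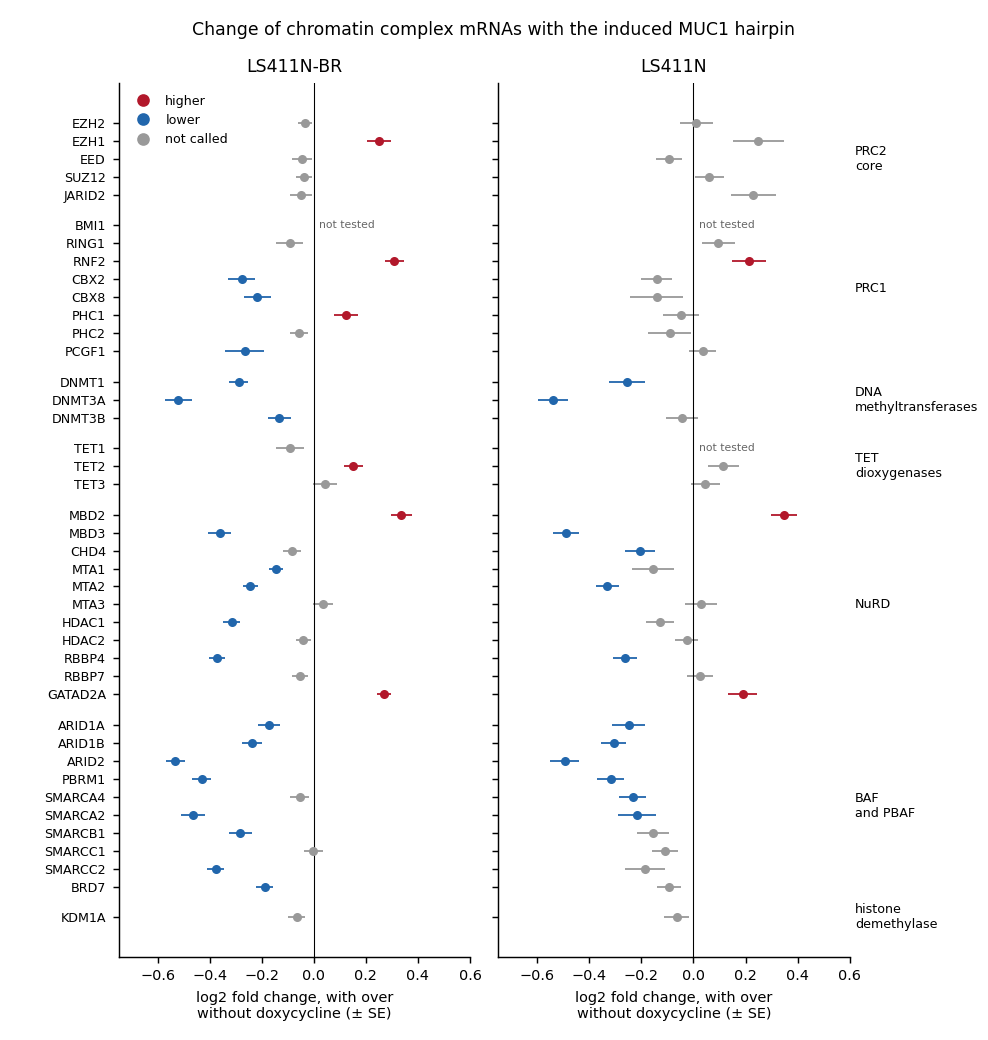
Log2 fold change (with over without doxycycline, ± SE, log2(TPM + 1) scale) of each member in LS411N-BR (left) and LS411N (right), ordered by complex, with calls at a limma adjusted p under 0.05 in colour. Members of BAF and PBAF lie at or left of 0 in both lines, between -0.53 and -0.002, whereas PRC2 and NuRD members lie on either side.

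Several members fell with a shared short word in their 3′ UTR. The hairpin sequence was not in the sources used here. A small RNA acts on other mRNAs through short matches to its seed, so all 7-base words held by at least 30 of 10045 other genes were ranked by the mean change of the genes that hold them in the 3′ UTR of the principal transcript. Of 16263 words, ATCAGTA ranked first and TCAGTAA second, by the lower change, in each line. The members were not used in the ranking, but these are the same libraries, an earlier look at which had found the word, so what follows is a description with no test. ATCAGTA also lies in 16 of 29 annotated MUC1 transcripts, inside the coding sequence of 13, and TCAGTAA in 0 of the 29. MBD2, MBD3 and PHC1 hold TCAGTAA and not ATCAGTA. Sites of PHC1, DNMT3B, TET3 and SMARCB1, which also hold a match, are not shown. The sites below (GRCh38, GENCODE 29, 5′ to 3′ on the gene's strand, the match in capitals) are those of MUC1 and of members called lower in LS411N. Of these, SMARCA4 was not called in LS411N-BR. HDAC2 and MBD2, which hold a match and were called lower in neither line, are shown beside them.
MUC1: gacacagttcaATCAGTAtaaaacggaagc
DNMT3A: ttgcagcaaaaATCAGTAAcaaaaaatagt
HDAC2: aataaacagaaATCAGTAAcacttagtgac
MBD3: gccgctctcctTCAGTAAatgtaacacagt
MBD2: ctagtaagcacTCAGTAActgtttgctgaa
RBBP4: ggtgcattgagATCAGTAtcaacagcagat
ARID2: tttgtttagaaATCAGTAgcttggttttct
PBRM1: aagagttgtggATCAGTAgccattttagtt
SMARCA4: cctgtcctggcATCAGTAgcatctgtaaca

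The sites lie at chr1:155187760-155187789 (minus strand) for MUC1, chr2:25233882-25233911 (minus) for DNMT3A, chr6:113938803-113938832 (minus) for HDAC2 and chr19:1577570-1577599 (minus) for MBD3. Those of MBD2 (minus), RBBP4 (plus) and ARID2 (plus) lie at chr18:54152438-54152467, chr1:32681602-32681631 and chr12:45905597-45905626. Those of PBRM1 (minus) and SMARCA4 (plus) lie at chr3:52547999-52548028 and chr19:11061991-11062020. Apart from the MUC1 site, all are in a 3′ UTR.

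DNMT3A and HDAC2 hold the 8-base ATCAGTAA that joins the words, and 10 members hold a 7-base word without it (PHC1, DNMT3B, TET3, MBD2, MBD3, RBBP4, ARID2, PBRM1, SMARCA4 and SMARCB1). Of these 12, 7 were called lower in LS411N-BR and 6 in LS411N, which is 58.3% and 50%. Among other genes with either word the shares were 45.9% and 29.2%. Of the members with neither word, 12 of 28 tested were called lower in LS411N-BR and 6 of 27 in LS411N, 42.9% and 22.2%, and the shares among other genes with neither were 30% and 13%. The members' median log2 fold change was -0.21 with a word and -0.09 without in LS411N-BR, and -0.19 with and -0.09 without in LS411N.

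The match alone did not sort the members. HDAC2 holds 5 copies of the 6-base core TCAGTA in a UTR of 8030 bases and had a log2 fold change of -0.04 in LS411N-BR and -0.03 in LS411N, while MBD2 holds TCAGTAA and rose. DNMT1, MTA1, MTA2, HDAC1, CBX2, CBX8, PCGF1 and SMARCC2 were called lower in LS411N-BR with no 6-base core in the UTR searched. UTR length moved with the match, the median being 3342 bases in the 12 members with a word and 1239 in the 29 without, and its part was not tested. In the longest annotated UTR of the gene, SMARCA2, ARID1B and TET2 also hold a word and SMARCA4 does not.

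**Figure D2:**
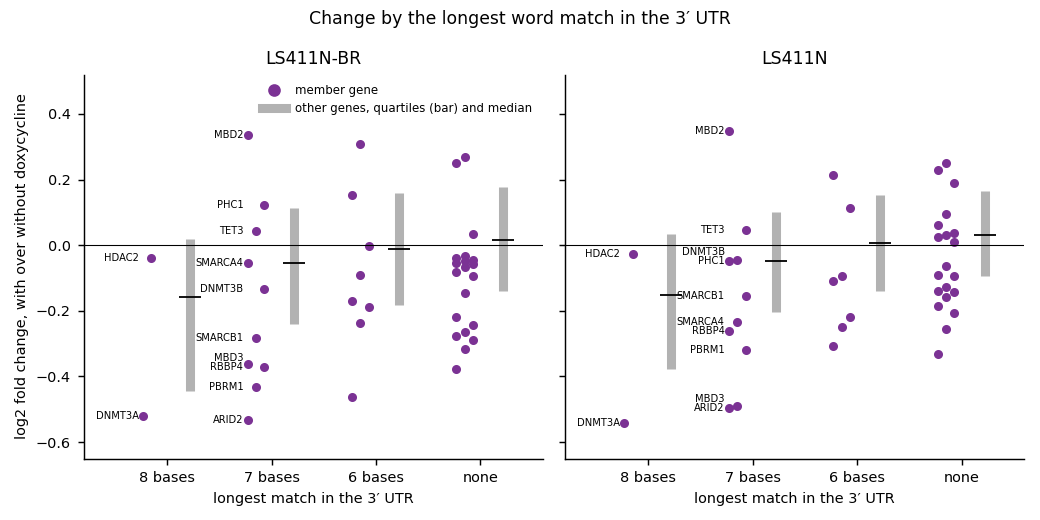
Log2 fold change (with over without doxycycline) of members (points) by the longest match (8, 7 or 6 bases) to the words in the 3′ UTR, beside the quartiles and median of other genes, in LS411N-BR (left) and LS411N (right). Medians of other genes are -0.16 and -0.15 for the 8-base match and 0.02 and 0.03 with no match, and MBD2 lies above the upper quartile of its class in both lines.

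DNA methyltransferases. Each of the 3 genes was called lower in LS411N-BR, and DNMT1 and DNMT3A in LS411N, beside 32.2% and 16% of all genes. As deposited only DNMT3A was called lower, in each line, beside 11.1% of all genes in LS411N-BR and 3.43% in LS411N. DNMT3A, a de novo methyltransferase, had 2.07, 2.09 and 1.95 TPM in LS411N-BR with doxycycline, against 3.1, 3.54 and 3.33 TPM without it. In LS411N it had 3.36, 3.48 and 3.16 TPM with doxycycline, against 5.13, 5.51 and 5.28 TPM without it. Neither pair of groups overlapped. DNMT3A in LS411N with doxycycline was at the level of LS411N-BR without it. The lines also differ in table and BRAF inhibitor, and this likeness was not tested. The log2 fold change was -0.52 ± 0.05 SE in LS411N-BR (limma adjusted p = 1.5e-05) and -0.54 ± 0.06 SE in LS411N (adjusted p = 0.00026).

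DNMT1, which copies methylation after replication, had 34.9, 34 and 35.2 TPM in LS411N-BR with doxycycline, against 43, 43.9 and 40.2 TPM without it. It had 53.9, 47.8 and 45.8 TPM in LS411N with doxycycline, against 59.8, 60.6 and 55.7 TPM without it. Groups did not overlap in either line, although replicate 1 of LS411N with doxycycline lay just under the lowest library without it. DNMT1 fell by 0.29 ± 0.04 SE on the log2 scale in LS411N-BR (limma adjusted p = 9.4e-05) and by 0.26 ± 0.07 SE in LS411N (adjusted p = 0.022). The LS411N call was lost, at adjusted p between 0.063 and 0.09, without replicate 1 or 2 of LS411N without doxycycline or replicate 2 or 3 with it. In TPM as deposited DNMT1 was not called in either line.

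DNMT3B, the other de novo methyltransferase, fell in LS411N-BR, at 2.64 ± 0.105 TPM with doxycycline and 2.97 ± 0.0943 TPM without it (SD, n = 3 each; limma adjusted p = 0.027). Leaving out replicate 1 or 3 without doxycycline, or 2 or 3 with it, ended that call (adjusted p 0.054 to 0.095), and as deposited its sign turned. DNMT3B in LS411N was at 1.99 ± 0.0543 TPM with doxycycline and 2.08 ± 0.0618 TPM without it and was not called.

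Of 9 further genes of DNA methylation, 8 were tested. In LS411N-BR 5 were called lower and 1 higher, beside 32.2% and 32.3% of all genes. In LS411N 3 were called lower and none higher, beside 16% and 18.8% of all genes. As deposited, 3 were called higher and 1 lower in LS411N-BR, beside 56.1% and 11.1% of all genes, and none in LS411N. HELLS, a remodeller needed for DNA methylation, fell by 0.56 in LS411N-BR (limma adjusted p = 1.9e-06) and by 0.4 in LS411N (adjusted p = 0.0023) on the log2 scale. UHRF1, which brings DNMT1 to replicated DNA, fell by 0.25 in LS411N-BR (adjusted p = 0.00013) and by 0.18 in LS411N (adjusted p = 0.024). As deposited UHRF1 was called in neither line (-0.05 in LS411N-BR and -0.11 in LS411N, limma adjusted p = 0.52 and 0.68), and HELLS was called lower in LS411N-BR only. Proliferation genes moved with them. Of 18, 14 were called lower and none higher in LS411N-BR, beside 32.2% and 32.3% of all genes. In LS411N 8 of the 18 were called lower and 1 higher, beside 16% and 18.8% of all genes. The 18 summed to 1345 to 1369 TPM in LS411N-BR with doxycycline and 1502 to 1517 TPM without it. In LS411N they summed to 1289 to 1340 TPM with doxycycline and 1380 to 1491 TPM without it. As deposited, 4 of the 18 were called higher and 1 lower in LS411N-BR, beside 56.1% and 11.1% of all genes, and none in LS411N. The part of these 18 genes in the fall of DNMT1, UHRF1 and HELLS was not tested.

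No TET dioxygenase was called lower among the 3 tested in LS411N-BR and the 2 tested in LS411N, and 1 was called higher, in LS411N-BR. Over all genes, 32.2% were called lower and 32.3% higher in LS411N-BR, and 16% and 18.8% in LS411N. TET2, which oxidises methylated cytosine, had 4.72, 4.7 and 4.64 TPM in LS411N-BR with doxycycline, against 4.01, 4.19 and 4.09 TPM without it. In LS411N TET2 had 2.98, 3.11 and 3.06 TPM with doxycycline, against 2.69, 2.62 and 2.88 TPM without it. TET2 was higher in all libraries with doxycycline in both lines. It rose by the test in LS411N-BR (log2 fold change 0.15 ± 0.04 SE, limma adjusted p = 0.0057), whereas in LS411N the change of 0.11 ± 0.06 SE was not called (adjusted p = 0.16). TET1 was at 0.78 to 0.873 TPM in LS411N with doxycycline and 1.01 to 1.23 TPM without it, on values rescaled over all 12 libraries. On those rescaled within LS411N, to which the filter applies, it did not reach 1 TPM in 3 libraries and was not tested. TET1 and TET3 were not called in LS411N-BR, where TET3 was called higher as deposited (limma adjusted p = 0.0016). All LS411N-BR libraries with doxycycline were lower in TET1, at 1.45 to 1.48 TPM against 1.54 to 1.75 TPM without it.

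Genes that methylation is known to silence in colon cancer gave little to measure. Of 31 such genes, 5 reached 1 TPM in enough libraries to be tested. HLTF was called lower in LS411N-BR (log2 fold change -0.2 ± 0.03 SE, limma adjusted p = 0.00054), and none of the 5 was called in LS411N or called higher in either line. As deposited the HLTF change was -0.002 and not called (adjusted p = 0.98), and 2 of the 5 were called higher and none lower in LS411N-BR. Below the filter, 12 of the 31 were at 0 in all 3 LS411N-BR libraries with doxycycline, and 12 in those without it.

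Polycomb. Of the 5 genes counted as PRC2 core, only EZH1 was called, higher in LS411N-BR. Over all genes, 32.3% were called higher and 32.2% lower in LS411N-BR, and 18.8% and 16% in LS411N. As deposited 4 of the 5 were called higher in LS411N-BR (EZH2, EZH1, EED and SUZ12), beside 56.1% of all genes, and none in LS411N. EZH2, its catalytic subunit, had 32.5, 32.2 and 33.2 TPM in LS411N-BR with doxycycline, against 32.8, 33.4 and 33.5 TPM without it. It had 28.1, 25.9 and 29.9 TPM in LS411N with doxycycline, against 27.9, 26.2 and 28.8 TPM without it. The groups overlapped in both lines. The log2 fold change of EZH2 was -0.03 ± 0.03 SE in LS411N-BR and 0.01 ± 0.06 SE in LS411N, but its sign in LS411N-BR turned to 0.17 as deposited (limma adjusted p = 0.014), close to the median of all genes there.

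EZH1, the less active paralogue of EZH2, was at 4.39, 4.76 and 4.44 TPM in LS411N-BR with doxycycline and 3.45, 3.71 and 3.75 TPM without it. It rose there (log2 fold change 0.25 ± 0.05 SE, limma adjusted p = 0.00098). In LS411N its change was the same size but not called (0.25 ± 0.1 SE, adjusted p = 0.078), replicate 3 without doxycycline being low at 2.71 TPM. EED and SUZ12, the scaffold subunits, and JARID2, a cofactor, were not called in either line on the rescaled values, while as deposited EED and SUZ12 were called higher in LS411N-BR (limma adjusted p = 0.035 and 0.012). The JARID2 log2 fold change was -0.05 in LS411N-BR and 0.23 in LS411N, a difference of -0.28 ± 0.1 SE that was not called (adjusted p = 0.092). A SUZ12 pseudogene, SUZ12P1, is listed separately, at 4.87 to 6.16 TPM, and how reads were divided between them is unknown.

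Of 6 accessory PRC2 genes, 1 was called higher and 2 lower in LS411N-BR, beside 32.3% and 32.2% of all genes. In LS411N 1 was called higher and none lower, beside 18.8% and 16% of all genes. LCOR was called higher in both lines, by 0.22 in LS411N-BR and 0.24 in LS411N. AEBP2, a DNA-binding cofactor, and EPOP fell in LS411N-BR, by 0.27 and 0.23 on the log2 scale. The H3K27 demethylase genes moved apart in LS411N-BR, where KDM6B rose by 0.4 (limma adjusted p = 2.9e-05) and KDM6A fell by 0.09 (adjusted p = 0.049), and neither was called in LS411N. As deposited AEBP2, EPOP and KDM6A were not called in LS411N-BR, nor LCOR in LS411N.

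RNF2, the main E3 ligase of PRC1, had 23.5, 22.4 and 23.2 TPM in LS411N-BR with doxycycline, against 18.1, 17.7 and 19.2 TPM without it. It had 8.72, 9.6 and 10.3 TPM in LS411N with doxycycline, against 8.19, 8.23 and 7.75 TPM without it. All libraries with doxycycline lay above those without. RNF2 rose by 0.31 ± 0.04 SE in LS411N-BR (limma adjusted p = 5e-05) and by 0.21 ± 0.07 SE in LS411N (adjusted p = 0.035), where the call was lost, at adjusted p between 0.063 and 0.12, without replicate 1 or 2 of the libraries without doxycycline or 2 or 3 of those with it.

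BMI1, the best known PRC1 ring-finger partner, stayed under 1 TPM in all 12 libraries and was not tested. It was at 0.725 ± 0.139 TPM in LS411N-BR with doxycycline and 0.898 ± 0.0424 TPM without it, and at 0.523 ± 0.032 TPM in LS411N with doxycycline and 0.62 ± 0.186 TPM without it (SD, n = 3 each). The readthrough gene COMMD3-BMI1, which overlaps it, is listed at 0 throughout. PCGF1, the ring-finger partner of a variant PRC1, had 12.6, 13.6 and 10.7 TPM in LS411N-BR with doxycycline, against 15.1, 13.8 and 15.8 TPM without it, with replicate 2 of each group nearly level, and fell there by 0.27 on the log2 scale (limma adjusted p = 0.01). The call was lost as deposited (-0.07, adjusted p = 0.36) and with no filter on TPM.

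The chromodomain genes CBX2 and CBX8, whose proteins read the PRC2 mark, fell in LS411N-BR by 0.28 and 0.22 (limma adjusted p = 0.0011 and 0.004) and had changes of -0.14 each in LS411N that were not called. As deposited neither was called in LS411N-BR (adjusted p = 0.21 and 0.53). PHC1, a polyhomeotic subunit, rose in LS411N-BR (0.12, adjusted p = 0.041), a call lost without any of 5 of the 6 libraries (adjusted p 0.061 to 0.11) and with the replicate number as a block (0.065). PHC2 was not called. Of the 7 PRC1 members tested, 2 were called higher and 3 lower in LS411N-BR, and 1 higher and none lower in LS411N. Of 20 further genes of PRC1 and of the H2A deubiquitinase, 6 were called higher and 4 lower in LS411N-BR, and none higher and 3 lower in LS411N. CBX7 fell by 0.37 in LS411N-BR, PHC3 fell by 0.36 in LS411N, and SCML1 rose by 0.35 in LS411N-BR. The shares over all genes were 32.3% for higher and 32.2% for lower calls in LS411N-BR, and 18.8% and 16% in LS411N. As deposited, 3 of the PRC1 members tested and 15 of the 20 further genes were called higher in LS411N-BR, and none and 1 lower, beside 56.1% and 11.1% of all genes, and none of either list, PHC3 included, was called in LS411N.

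NuRD. Of 11 members, 2 were called higher and 5 lower in LS411N-BR, beside 32.3% and 32.2% of all genes. In LS411N 2 were called higher and 4 lower, beside 18.8% and 16% of all genes. As deposited, 5 were called higher and 2 lower in LS411N-BR, beside 56.1% and 11.1% of all genes, and 1 higher and 1 lower in LS411N, beside 9.75% and 3.43%. The methyl-CpG-binding-domain subunits, which are alternatives in the complex, went opposite ways. MBD3, the form that binds methylated DNA poorly, had 9.63, 8.7 and 9.12 TPM in LS411N-BR with doxycycline, against 11.4, 12.4 and 12.1 TPM without it. In LS411N MBD3 had 10.4, 9.77 and 10.1 TPM with doxycycline, against 14.7, 14.7 and 14.3 TPM without it. It was lower in every library with doxycycline, by -0.36 ± 0.04 SE in LS411N-BR (limma adjusted p = 6.7e-05) and -0.49 ± 0.05 SE in LS411N (adjusted p = 0.00017).

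MBD2, the form that binds methylated DNA, had 27.9, 25.4 and 25.4 TPM in LS411N-BR with doxycycline, against 20.3, 20.1 and 21 TPM without it. In LS411N MBD2 had 16.7, 16.9 and 17.4 TPM with doxycycline, against 12.5, 13.3 and 13.5 TPM without it. It was higher in every library with doxycycline. It rose by 0.34 ± 0.04 SE (limma adjusted p = 5.5e-05) in LS411N-BR and by 0.35 ± 0.05 SE (adjusted p = 0.0011) in LS411N.

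Of the other subunits, RBBP4, a histone chaperone, had 30.3, 31.3 and 30 TPM in LS411N-BR with doxycycline, against 38.6, 40 and 39.9 TPM without it. It had 46, 47.6 and 48.9 TPM in LS411N with doxycycline, against 55.8, 55.7 and 59.6 TPM without it. RBBP4 was lower in all libraries with doxycycline, by -0.37 ± 0.03 SE in LS411N-BR (limma adjusted p = 4.4e-06) and -0.26 ± 0.05 SE in LS411N (adjusted p = 0.0035). Its paralogue RBBP7 was not called in either line, with log2 fold changes of -0.05 and 0.03.

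MTA2, one of the scaffold subunits, had 42.7, 40.7 and 41.1 TPM in LS411N-BR with doxycycline, against 48.5, 49.3 and 49.3 TPM without it. It had 45.3, 46.4 and 45.2 TPM in LS411N with doxycycline, against 59.4, 56.4 and 56.7 TPM without it. MTA2 fell by 0.24 ± 0.03 SE in LS411N-BR (limma adjusted p = 5.7e-05) and by 0.33 ± 0.04 SE in LS411N (adjusted p = 0.00086), without overlap, though as deposited it was not called in either line. MTA1 fell in LS411N-BR (-0.15, adjusted p = 0.0011) and had a change of -0.16 in LS411N that was not called. The MTA1 sign turned as deposited in LS411N-BR. MTA3 was not called in either line, but was called higher in LS411N-BR as deposited (0.22, limma adjusted p = 0.0029).

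CHD4, the remodelling ATPase of NuRD, had 43.7, 43 and 42.1 TPM in LS411N-BR with doxycycline, against 45.3, 47.1 and 43.5 TPM without it. It had 58.9, 53.2 and 52.3 TPM in LS411N with doxycycline, against 65.3, 62.5 and 61.6 TPM without it. The LS411N-BR groups overlapped and the LS411N groups did not. CHD4 fell in LS411N (-0.21 ± 0.06 SE, limma adjusted p = 0.025), a call lost (adjusted p 0.057 to 0.1) without replicate 1 or 2 of the libraries without doxycycline or 2 or 3 of those with it. In LS411N-BR its change of -0.08 was not called (adjusted p = 0.064).

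HDAC1, the most abundant member in every group, had 189, 189 and 183 TPM in LS411N-BR with doxycycline, against 232, 225 and 237 TPM without it. It fell there (-0.32 ± 0.03 SE, limma adjusted p = 1.5e-05), a call lost as deposited (-0.11, adjusted p = 0.11). The HDAC1 change of -0.13 in LS411N was not called (adjusted p = 0.096). GATAD2A, a bridging subunit chosen here after its values were seen, rose by 0.27 in LS411N-BR (adjusted p = 2e-05) and by 0.19 in LS411N (adjusted p = 0.033), the LS411N call being lost without replicate 2 of the libraries without doxycycline or any of the 3 with it (adjusted p 0.051 to 0.11). Of 4 further NuRD genes tested, GATAD2B rose and ZMYND8 fell in LS411N-BR, by 0.13 and 0.2, and none was called in LS411N. As deposited ZMYND8 was not called.

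KDM1A, a histone demethylase that works with CoREST and NuRD, had 70.8, 71.3 and 70.1 TPM in LS411N-BR with doxycycline, against 73.2, 76.4 and 71.5 TPM without it. It had 65.6, 68 and 64.5 TPM in LS411N with doxycycline, against 71.8, 67.2 and 67.9 TPM without it. The groups overlapped in LS411N and not in LS411N-BR, and the change, -0.07 in LS411N-BR and -0.06 in LS411N, was not called in either line. Its CoREST partner RCOR1 rose in both lines, by 0.23 in LS411N-BR and 0.43 in LS411N. The difference between the lines of -0.19 ± 0.05 SE was called (limma adjusted p = 0.041). That difference was -0.07 and not called as deposited (limma adjusted p = 0.86). HMG20B, another CoREST subunit, fell by 0.44 in LS411N-BR.

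BAF and PBAF. Of 10 members, 8 were called lower in LS411N-BR and 6 in LS411N, beside 32.2% and 16% of all genes. None was called higher, beside 32.3% and 18.8% of all genes. The median log2 fold change was -0.26 in LS411N-BR and -0.23 in LS411N. In TPM as deposited, the calls of ARID2, PBRM1, SMARCA2 and SMARCC2 in LS411N-BR and of ARID2 in LS411N were kept. SMARCA4 and SMARCC1 were then called higher in LS411N-BR (limma adjusted p = 0.036 and 0.0031), as were 56.1% of all genes. ARID2, a subunit of PBAF only, had 14, 13.4 and 14.3 TPM in LS411N-BR with doxycycline, against 19.8, 21 and 20.4 TPM without it. It had 9.05, 9.26 and 9.07 TPM in LS411N with doxycycline, against 12.9, 12.7 and 14.3 TPM without it. Neither pair of groups overlapped, and ARID2 fell by 0.53 ± 0.04 SE in LS411N-BR (limma adjusted p = 1.3e-06) and by 0.49 ± 0.05 SE in LS411N (adjusted p = 0.00029).

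PBRM1, the polybromo subunit that with ARID2 defines PBAF, had 19.3, 18.4 and 19.3 TPM in LS411N-BR with doxycycline, against 25, 26.6 and 25.8 TPM without it. It had 21.4, 21.6 and 22.3 TPM in LS411N with doxycycline, against 26, 26.8 and 29.2 TPM without it. It was lower in all libraries with doxycycline, by -0.43 ± 0.04 SE in LS411N-BR (limma adjusted p = 3.9e-06) and -0.32 ± 0.05 SE in LS411N (adjusted p = 0.0024). BRD7, the bromodomain subunit of PBAF, fell in LS411N-BR (-0.19, adjusted p = 0.00075), a sign that turned as deposited (0.02), and was not called in LS411N.

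ARID1A and ARID1B are the alternative DNA-binding subunits of canonical BAF. ARID1A had 11.5, 10.7 and 11.6 TPM in LS411N-BR with doxycycline, against 12.5, 13.4 and 12.4 TPM without it. It had 12.6, 12.3 and 11.1 TPM in LS411N with doxycycline, against 14.2, 15.2 and 13.8 TPM without it. The groups did not overlap. ARID1A fell by 0.17 ± 0.04 SE in LS411N-BR (limma adjusted p = 0.0055), which turned to 0.02 as deposited, and by 0.25 ± 0.06 SE in LS411N (adjusted p = 0.017), a call lost without replicate 2 without doxycycline (0.06) or replicate 3 with it (0.068).

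ARID1B had 10.3, 10.4 and 10.9 TPM in LS411N-BR with doxycycline, against 12.4, 12.9 and 12.1 TPM without it. It had 11.9, 11.5 and 11.5 TPM in LS411N with doxycycline, against 14, 14.5 and 15.2 TPM without it. Again every library with doxycycline was lower, by -0.24 ± 0.04 SE in LS411N-BR (limma adjusted p = 0.00036) and -0.31 ± 0.05 SE in LS411N (adjusted p = 0.0018). Neither call was made in TPM as deposited.

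The ATPases are SMARCA4 and SMARCA2, of which a complex holds either. SMARCA4 had 24.2, 23.4 and 23.8 TPM in LS411N-BR with doxycycline, against 24.9, 25.5 and 23.5 TPM without it. It had 35.6, 32.6 and 32.3 TPM in LS411N with doxycycline, against 39.6, 40 and 38.7 TPM without it. The groups overlapped in LS411N-BR and not in LS411N. SMARCA4 fell in LS411N (-0.23 ± 0.05 SE, limma adjusted p = 0.01; 0.052 without replicate 2 with doxycycline) and was not called in LS411N-BR (-0.05 ± 0.04 SE, adjusted p = 0.22; 0.15 as deposited).

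SMARCA2 had 8.86, 9.32 and 8.45 TPM in LS411N-BR with doxycycline, against 12.5, 13.2 and 11.9 TPM without it. It had 16.3, 13.8 and 14.4 TPM in LS411N with doxycycline, against 16.1, 17.7 and 18.4 TPM without it. The groups were apart in LS411N-BR, while replicate 1 of LS411N with doxycycline lay above replicate 1 without it. SMARCA2 fell in LS411N-BR (-0.46 ± 0.05 SE, limma adjusted p = 1.7e-05), and its call in LS411N (-0.22 ± 0.07 SE, adjusted p = 0.049) was lost without replicate 2 or 3 of either LS411N group (adjusted p 0.057 to 0.18) and with the replicate number as a block (0.057). That LS411N call was also lost as deposited, with a pseudocount of 0.1 TPM, with no filter on TPM and with no trend, and was kept in 6 of 15 alternatives. The difference between the lines was -0.24 ± 0.09 SE for SMARCA2 and 0.18 ± 0.06 SE for SMARCA4, neither called (adjusted p = 0.12 and 0.081).

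The core subunits SMARCB1 and SMARCC2 fell in LS411N-BR by 0.28 and 0.38 (limma adjusted p = 0.0003 and 6.6e-06) and had changes of -0.15 and -0.19 in LS411N that were not called. SMARCC1, the paralogue of SMARCC2, was not called in either line. Of 15 further BAF and PBAF genes tested, 3 were called higher and 7 lower in LS411N-BR, beside 32.3% and 32.2% of all genes. In LS411N 1 was called higher and 5 lower, beside 18.8% and 16% of all genes. As deposited, 7 of these were called higher and 2 lower in LS411N-BR, beside 56.1% and 11.1% of all genes, and none in LS411N. SMARCD3 rose by 0.47 in LS411N-BR and 0.3 in LS411N, SS18 fell by 0.43 and 0.3, and BCL7C fell by 0.47 in LS411N-BR, and these LS411N-BR calls were kept as deposited. The 10 members summed to 210 to 217 TPM in LS411N-BR with doxycycline and 247 to 259 TPM without it, and to 276 to 300 TPM in LS411N with doxycycline and 321 to 331 TPM without it.

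Without replicate 3 of LS411N without doxycycline, 20 rather than 12 members were called lower in LS411N, and 3 higher. The calls gained were CBX2, CBX8, EED, HDAC1, MTA1, PHC2, SMARCB1, SMARCC1 and SMARCC2, and the call of SMARCA2 was lost. Without replicate 2 or replicate 3 of LS411N with doxycycline, 1 member was called higher in place of 3. In LS411N the number of calls thus rests in part on which libraries are used.

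**Figure D3:**
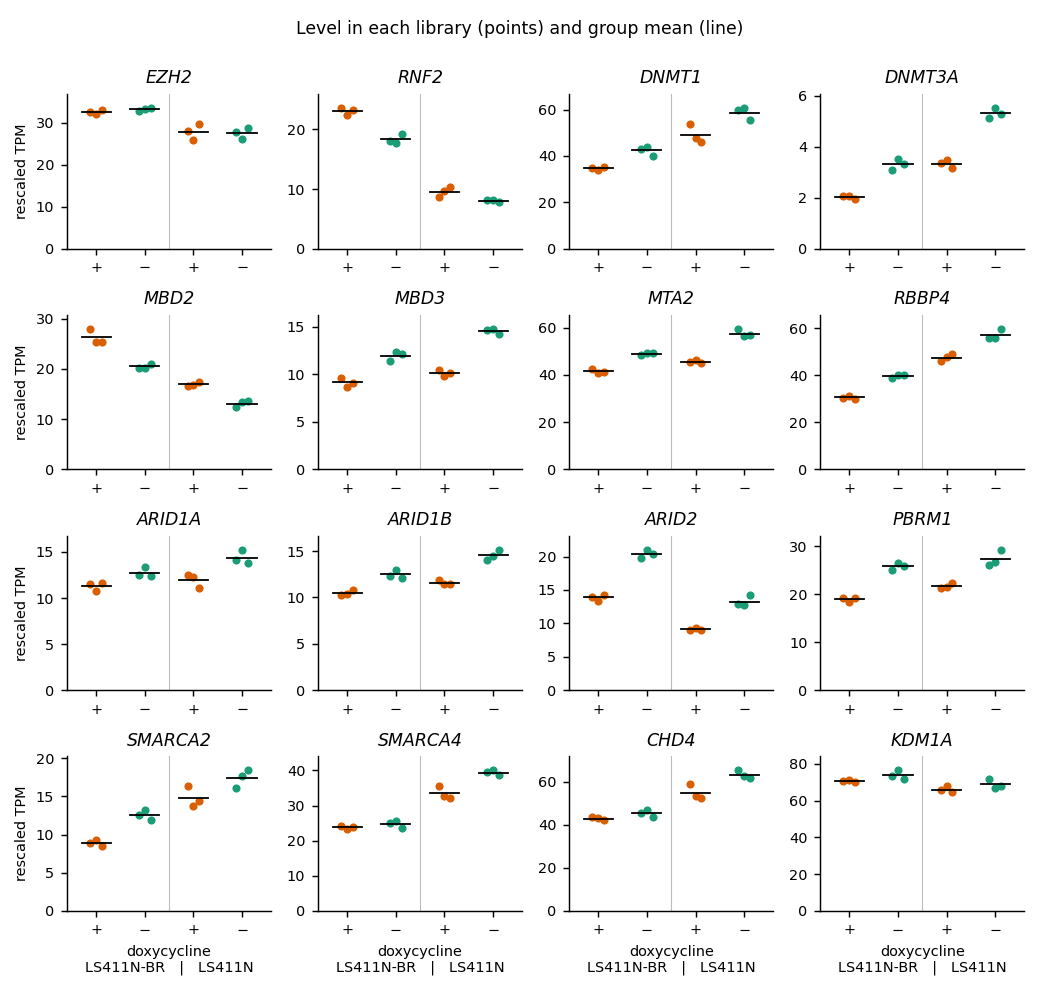
Rescaled TPM in each library (points) and the group mean (line) for 16 members, with (+) and without (−) doxycycline, LS411N-BR left and LS411N right of the grey line. DNMT3A, MBD3, RBBP4, MTA2, ARID2 and PBRM1 are lower and MBD2 and RNF2 higher in every library with doxycycline, while EZH2 overlaps.

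Ratios of partner genes within a library do not depend on scaling. Of 18 ratios, the groups with and without doxycycline did not overlap in 17 in LS411N-BR and in 7 in LS411N, and these 7 were apart in the same direction in both lines. With 3 libraries against 3, the smallest two-sided exact permutation p is 0.1, so none could pass 0.05. The smallest p adjusted over the 18 was 0.106 in LS411N-BR and 0.257 in LS411N. Over all genes, higher and lower calls made up 32.3% and 32.2% in LS411N-BR, and 18.8% and 16% in LS411N. How often ratios of other gene pairs would be apart was not tested. The counts of ratios apart thus cannot be called particular to these partners. The MBD3 to MBD2 ratio was 0.349 ± 0.00892 in LS411N-BR with doxycycline and 0.584 ± 0.0271 without it, and 0.596 ± 0.026 in LS411N with doxycycline and 1.12 ± 0.0623 without it (SD, n = 3 each). It was the ratio with the largest log2 difference of the 18 in each line, -0.74 in LS411N-BR and -0.9 in LS411N.

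The DNMT3B to DNMT3A ratio was 1.3 ± 0.0636 in LS411N-BR with doxycycline and 0.899 ± 0.0879 without it, and 0.598 ± 0.0146 in LS411N with doxycycline and 0.392 ± 0.01 without it. The order of the de novo enzymes was thus turned in LS411N-BR and kept in LS411N. The RBBP4 to RBBP7 and ARID2 to ARID1A ratios were lower, and the TET2 to TET1 and MTA3 to MTA2 ratios higher, with doxycycline in both lines. The SMARCA4 to SMARCA2 ratio was 2.69 ± 0.16 in LS411N-BR with doxycycline and 1.97 ± 0.0296 without it, but 2.26 ± 0.0947 and 2.28 ± 0.183 in LS411N, where the groups overlapped. The difference between the lines in these ratios was not tested.

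**Figure D4:**
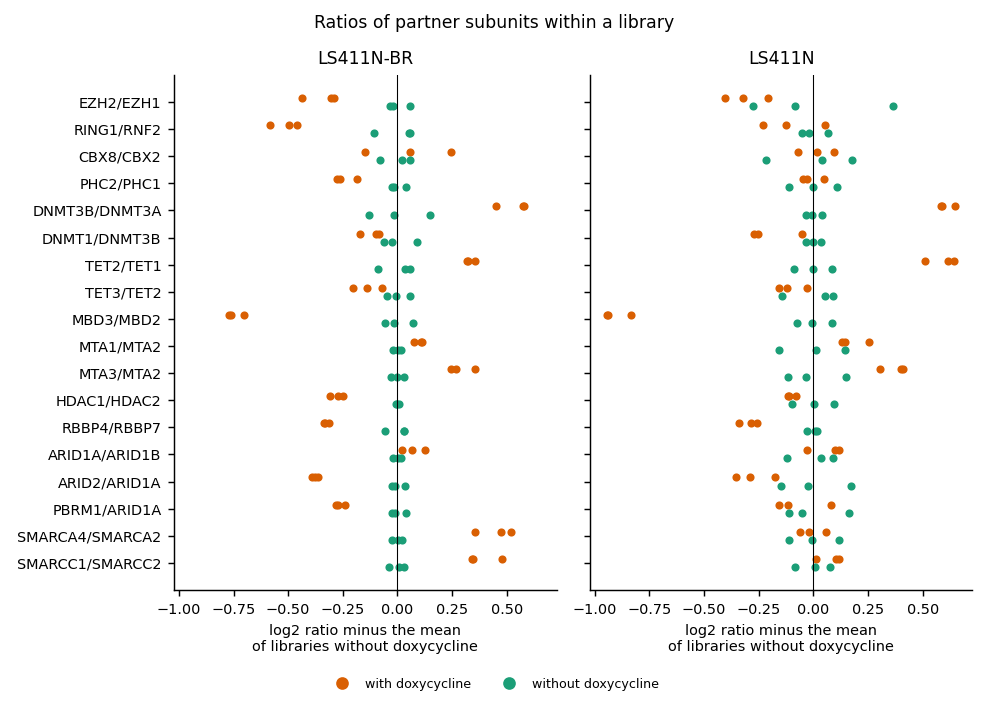
Log2 ratio of 18 partner pairs in each library, minus the mean of the libraries without doxycycline of that line, in LS411N-BR (left) and LS411N (right). MBD3/MBD2 moves furthest to the left in both lines, and 7 ratios are apart in both.

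A difference in level between the lines cannot be told apart from the separate tables they were deposited in, so no test was made. Nor can it be told apart from the 4 µM BRAF inhibitor, which only the LS411N-BR medium held. Without doxycycline, 11 of the 40 members at 1 TPM or more in either line were at least 1.5-fold apart in mean, beside 29.8% of 11550 genes, a share near that of the members. RNF2 was 2.28-fold higher in LS411N-BR, at 18.3 ± 0.76 TPM against 8.05 ± 0.265 TPM in LS411N (SD, n = 3 each). Its alternative RING1 was 2.24-fold lower in LS411N-BR, at 0.988 ± 0.0274 TPM against 2.21 ± 0.151 TPM in LS411N. CBX8 was at 3.86 ± 0.21 TPM in LS411N-BR and 10.7 ± 1.61 TPM in LS411N.

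DNMT3A (3.32 ± 0.218 TPM in LS411N-BR and 5.31 ± 0.189 TPM in LS411N), SMARCA4 (24.6 ± 1.04 and 39.4 ± 0.697 TPM) and SMARCB1 (20.5 ± 0.87 and 33.8 ± 1.78 TPM) were lower in LS411N-BR. ARID2 (20.4 ± 0.619 and 13.3 ± 0.864 TPM) and MBD2 (20.5 ± 0.469 and 13.1 ± 0.561 TPM) were higher there. None of the libraries of these genes overlapped between the lines. EZH2 was at 33.2 ± 0.375 TPM in LS411N-BR and 27.6 ± 1.35 TPM in LS411N, 1.2-fold higher, and HDAC1 and KDM1A overlapped between the lines.

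**Figure D5:**
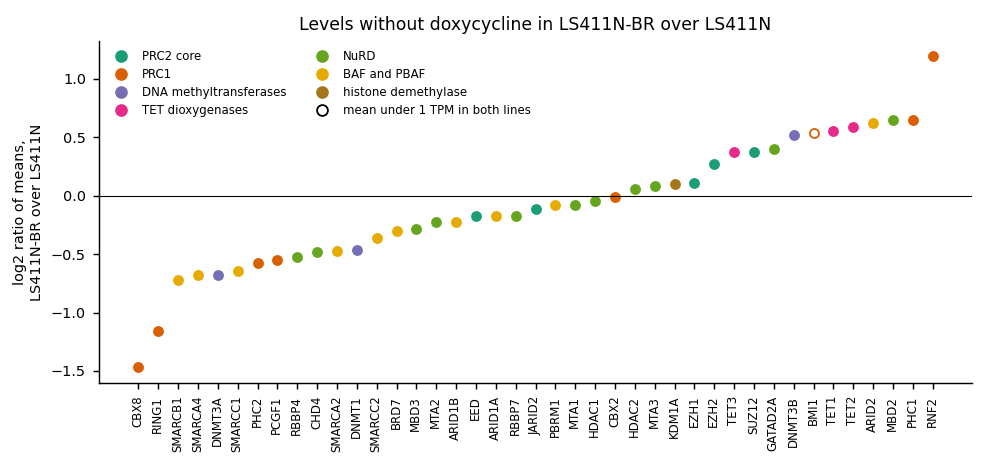
Log2 ratio of the mean rescaled TPM without doxycycline, LS411N-BR over LS411N (3 libraries each), for each member, coloured by complex and ordered by the ratio. PRC1 members lie at both ends, with CBX8 at -1.47 and RNF2 at 1.19, and no test was made.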

How the data were processed

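The 12 libraries were prepared with TruSeq Stranded mRNA, per the labels' protocols. The authors deposited TPM, with 1 table for each line, and every library sums to 1000000. Per the submitters' processing notes, STAR and GRCh38 were used, with no role given for either. What computed the TPM, and read totals, were not in the sources used here, so no counting intervals are given. TPM were rescaled by median-of-ratios factors, over the 6 libraries of a line for tests within it and over all 12 for the difference and for printed levels. The test was two-sided limma-trend (limma 3.58.1, R 4.3.3) on log2(TPM + 1), for genes that reached 1 TPM in 3 or more of the libraries compared, with Benjamini-Hochberg adjustment over all of them. Fold changes on this scale understate those of low genes. The procedure was tested on simulated data with planted log2 changes larger than that of any member, so recovery of changes as small as the members' was not tested. 3′ UTRs came from GENCODE 29, for the principal transcript.

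Samples were grouped by their titles. Same-numbered libraries share only a number in the labels. The members, gene lists and the word search were chosen with earlier results of these data known. Values in every library are given for MUC1, for up to 4 members per complex called alike in both lines, and for the best known member of each complex; of other lists, up to 3 called genes with the largest change. A gene that this rule takes is not reported here and was not replaced. Alternatives were the scaling, pseudocount, filter, trend, moderation, a replicate block, a spread from all 12 libraries and leaving out each library. BMI1 pseudogenes, and those of other members, and genes overlapping DNMT1 and MTA1 on the same strand could share reads with them.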

Additional observations from a re-analysis of the deposited data

Results flagged for a closer look

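RING1, the PRC1 ligase that alternates with RNF2, was singled out because its libraries moved in opposite directions in the lines. It had 0.9, 0.876 and 0.837 TPM in LS411N-BR with doxycycline, against 1.01, 0.992 and 0.958 TPM without it, and 2.48, 2.41 and 2.42 TPM in LS411N with doxycycline, against 2.35, 2.23 and 2.05 TPM without it. The difference of the log2 fold changes, LS411N-BR minus LS411N, was -0.187 ± 0.0731 SE and was not called (limma adjusted p = 0.13), nor was RING1 called within either line.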

How the results depend on the processing

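In TPM as deposited, 17 members were called higher and 7 lower in LS411N-BR, and 1 higher and 3 lower in LS411N. In LS411N-BR the log2 fold change then turned positive for 13 members called under either scaling: ARID1A (0.0229), BRD7 (0.0173), DNMT3B (0.0245), EED (0.152), EZH2 (0.17), HDAC2 (0.166), KDM1A (0.141), MTA1 (0.0593), PHC2 (0.142), RBBP7 (0.155), SMARCA4 (0.147), SMARCC1 (0.202) and SUZ12 (0.169). A filter of 5 TPM left 3 higher calls in LS411N-BR, since fewer members were tested, and no filter left 1 in LS411N. A spread from all 12 libraries gave 6 higher calls in LS411N. Among members with neither 7-base word, an alternative chosen after seeing the data that counts fewer members, 12 were called lower in LS411N-BR and 6 in LS411N. Leaving out each library in turn gave 5 to 6 higher and 18 to 20 lower calls in LS411N-BR, 1 to 3 higher and 8 to 20 lower in LS411N, and 0 to 1 higher and 0 to 3 lower for the difference. The 3 lower calls for the difference were HDAC1, PBRM1 and SMARCA2, without replicate 3 of LS411N without doxycycline. Where not stated, the cause of these shifts was not tested. Deviations of same-numbered libraries correlated between 0.00272 and 0.0319 in LS411N-BR and between 0.0214 and 0.2 in LS411N, so the numbers were not taken as pairs; the replicate block gave 5 higher and 20 lower calls in LS411N-BR and 3 and 11 in LS411N. Genes under 1 TPM, such as BMI1, and unknown depth limit what can be told of low members.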
